A study of Mus musculus with 6 samples.

Results

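The smooth muscle contractile genes Acta2, Actg2, Myh11, Myl9, Mylk, Tagln, Cnn1, Smtn, Lmod1 and Des were followed across the cells of the mouse aorta. They were chosen by name, as textbook genes of the smooth muscle contractile apparatus, and all 10 were found among the 27998 genes of the deposited count matrices. The samples were single-cell 3′ transcript libraries of whole aorta from mice labelled C57B/6J, all aged 18 weeks. The control samples (n = 3) came from mice on normal diet, the high-fat diet samples (n = 3) from mice on high-fat diet, and no genotype, allele or drug was named for either group. The labels gave neither the length of the diet nor whether a sample was 1 aorta or a pool, so the p-values measure the spread between these samples, which may be technical.

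Smooth muscle contracts when calcium activates myosin light chain kinase (Mylk), which phosphorylates the regulatory light chain (Myl9) of the smooth muscle myosin heavy chain (Myh11). The motor then pulls on filaments of smooth muscle alpha actin (Acta2) and gamma actin (Actg2). Calponin (Cnn1), transgelin (Tagln) and smoothelin (Smtn) bind these actin filaments, leiomodin 1 (Lmod1) nucleates them, and desmin (Des) forms the intermediate filaments that tie the apparatus together in smooth and striated muscle. Serum response factor with its partner myocardin drives many of these genes through a short motif called the CArG box. Pericytes, the mural cells of small vessels, carry a part of the same apparatus, and loss of these transcripts is the classical sign of smooth muscle that leaves its contractile state.

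The CArG box links the genes as targets of 1 pathway, so the stretches upstream of their starts that hold it or come within 1 letter of it are shown. RefSeq (GRCm38.p6) gave promoter sequences for 7 of the 10 genes: Acta2, Cnn1, Lmod1, Smtn, Mylk, Myl9 and Des. Each stretch is 30 bases from the 250 bases before the start, read 5′ to 3′ on the strand of the gene, with the 10 letters of the site in capitals.
Acta2, 84 bases before the start, chr19:34255438-34255467, minus strand, within an annotated exon: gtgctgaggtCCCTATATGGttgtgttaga
Acta2, 34 bases before the start, chr19:34255388-34255417, minus strand, within an annotated exon: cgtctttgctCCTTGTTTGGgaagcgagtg
Lmod1, 189 bases before the start, chr1:135324614-135324643, plus strand: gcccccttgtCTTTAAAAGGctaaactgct
Lmod1, 164 bases before the start, chr1:135324639-135324668, plus strand: ctgctctgtaCTAAATTTGGtcacgcagcg
Myl9, 161 bases before the start, chr2:156775293-156775322, plus strand: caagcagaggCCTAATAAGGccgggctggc
Myl9, 99 bases before the start, chr2:156775355-156775384, plus strand: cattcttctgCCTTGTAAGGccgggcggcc
The site 161 bases before Myl9 matched the CArG box in every letter, and the other 5 sites differed from it by 1 letter. An exact box stood in 1 of the 7 promoters and in 1.467% of 32851 promoters of all genes. With 1 letter free, 3 of the 7 promoters had at least 2 sites, against 2.962% of all promoters. The motif reads the same on both strands, so each site was counted once. A match describes letters, and the data hold no measure of binding at these sites.

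The genes lie apart in the genome, so none shares reads with another by overlap of their positions. By the GENCODE vM21 annotation of GRCm38, all 10 are protein coding. Acta2 lies at chr19:34241090-34255590, Actg2 at chr6:83512905-83536265, Myh11 at chr16:14194535-14291372 and Myl9 at chr2:156775420-156781658. Mylk lies at chr16:34745210-35002420, Tagln at chr9:45929619-45936058 and Cnn1 at chr9:22099216-22109630. Smtn lies at chr11:3517523-3540612, Lmod1 at chr1:135324807-135368065 and Des at chr1:75360329-75368579. Acta2 and Actg2 are near-identical actins, and reads in their coding part could be split between them and the striated and non-muscle actins, so their levels carry that uncertainty.

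The files held 62838 cells with 41388034 to 83886418 UMIs (unique transcript tags) per sample, and 58034 cells were kept. Cells were grouped without the 10 genes and without 30 further genes of the contractile apparatus, and the groups were then named from other markers. Smooth muscle-like cells fell into a large group of 4 clusters (11268 cells, called the Sost type here after its largest cluster) and a small one marked by Sncg, Rgs4 and Pln (531 cells, the Sncg type). Pericyte-like cells (399) showed 9 of 10 pericyte markers in every sample used, but so did the Sncg type, so the levels tell more. These markers summed to 4304 to 6518 CPM in pericyte-like cells and to 798 to 1675 CPM in the Sncg type. A further 743 mural cells led by Colec11, Igfbp3 and Cpxm2 stayed unnamed. Sost, Npnt and Itga8 led the largest cluster of the Sost type (6224 cells), which all 6 samples shared. That cluster had 13 of 20 smooth muscle markers, 5 of 8 of the Sncg type and 4 of 8 of the Sost type above 3-fold. Its 10 leading genes held 4 markers of the Sost type and 0 of the Sncg type. The other 3 clusters carried smooth muscle markers, but Sost, Npnt and Itga8 were not among their 10 leading genes. The cluster from control 3 had 9 of 20 smooth muscle markers, 3 of 8 of the Sncg type and 2 of 8 of the Sost type above 3-fold. The cluster from control 1 had 3, 0 and 1 of these, and the one from high-fat diet 1 and 2 had 4, 0 and 2. The name of all 3 as Sost type is therefore uncertain. Some libraries stood apart. Each sample joined 2 wells, and those 3 clusters came almost wholly from 1 or 2 wells: 1308 of 1351 cells came from well 1 of control 1, and 1063 of 1103 cells from well 2 of control 3. In the third, 608 and 1911 of 2590 cells came from well 1 of high-fat diet 1 and of high-fat diet 2. Control 1 held 11 cells of the Sncg type and 9 pericyte-like cells, under the minimum of 20, and was left out of the comparisons of those types. Any pair of samples shared 0.923% to 2.81% of the cell barcodes of the smaller one.

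The contractile genes together made up 3.10% ± 0.60 of all UMIs of the Sost type (SD, n = 6 samples) and 3.25% ± 0.36 of the Sncg type (n = 5). In pericyte-like cells the share was 1.33% ± 0.46 (n = 5), and in immune cells, which should lack these genes, it was 0.249%. Levels below are in CPM, the counts of a gene relative to all UMIs of the cell class in that sample. Each 3′ tag stands for 1 transcript molecule whatever its length, and values of different genes are not ranked against each other. The plot of levels by class shows every sample.

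**Figure D1:**
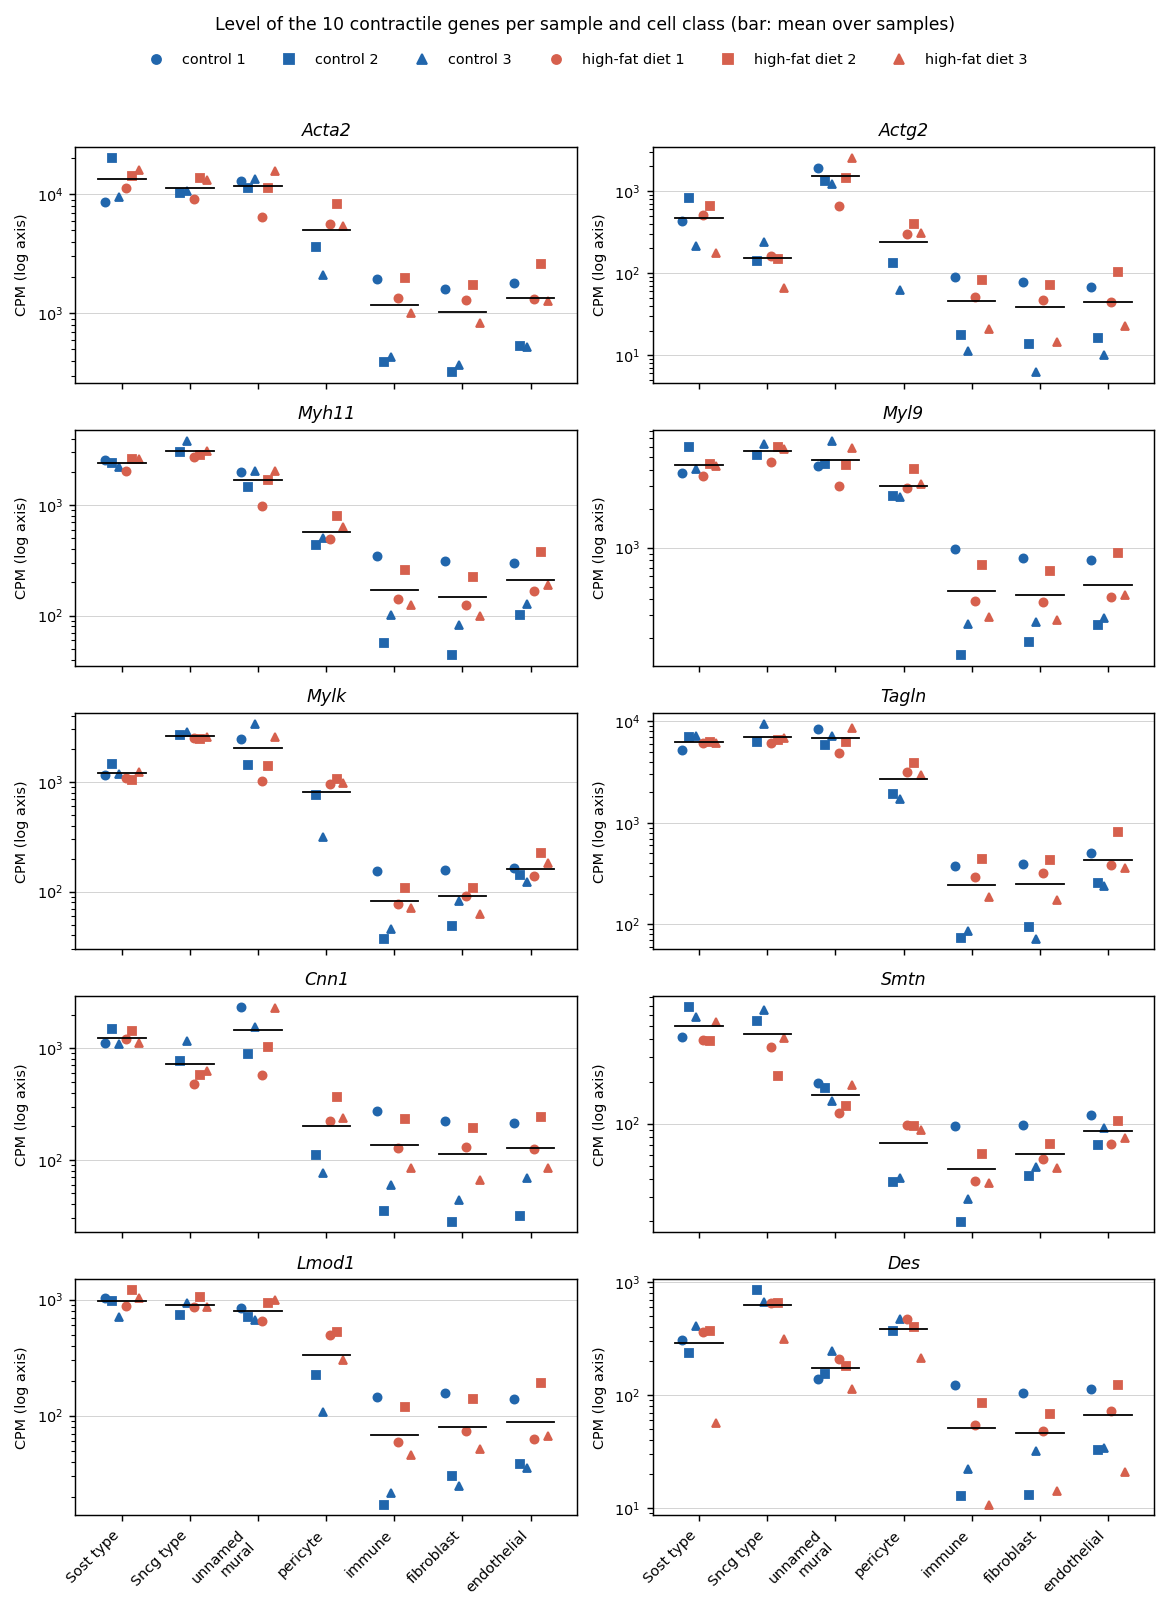
Level of each of the 10 genes (CPM, log axis) in 7 cell classes, with 1 point per sample (blue, control; red, high-fat diet; the shape gives the sample number) and the mean as a bar. The mean of every gene is lower in immune, fibroblast and endothelial cells than in both smooth muscle types, and for most genes the pericyte mean lies in between.

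The motor genes were high in the Sost type of every sample. Myh11, the smooth muscle myosin heavy chain, stood at 2556, 2428 and 2209 CPM in the Sost type of controls 1 to 3 and at 2055, 2615 and 2626 CPM in high-fat diet samples 1 to 3. The range of 2055 to 2626 CPM was narrow and the diet groups overlapped. Myl9, the regulatory light chain, was at 3758, 6035 and 4065 CPM in the controls and at 3594, 4426 and 4301 CPM on high-fat diet, with control 2 highest. Mylk, the kinase that switches the motor on, was at 1163, 1464 and 1175 CPM in the controls and at 1084, 1044 and 1222 CPM on high-fat diet, again highest in control 2.

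Acta2, the smooth muscle alpha actin, differed among samples of the same diet. Its level in the Sost type was 8551, 20172 and 9381 CPM in controls 1 to 3 and 11354, 14306 and 15927 CPM in high-fat diet samples 1 to 3. Control 2 was the highest sample, and the lowest ones were the other 2 controls. Actg2, the actin typical of visceral muscle, was at 429, 813 and 212 CPM in the controls and 509, 653 and 174 CPM on high-fat diet. The samples numbered 3, 1 of each diet, were the lowest for Actg2.

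Among the actin-binding proteins, Tagln was at 5209, 6940 and 7242 CPM in the controls and 6117, 6328 and 6085 CPM on high-fat diet, so the high-fat diet samples lay within the range of the controls. Cnn1 was at 1114, 1475 and 1097 CPM in the controls and 1198, 1436 and 1103 CPM on high-fat diet, also within the controls' range. Smtn was at 417, 683 and 584 CPM in the controls and 400, 392 and 534 CPM on high-fat diet. Here 2 high-fat diet samples lay below all controls, and the third lay between them. Lmod1, which starts new actin filaments, was at 1041, 981 and 714 CPM in the controls and 885, 1207 and 1041 CPM on high-fat diet.

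Desmin stood out by 1 library. Des was at 307, 238 and 406 CPM in the controls and at 361, 367 and 56.2 CPM on high-fat diet, and the low value belonged to high-fat diet 3. Both wells of that sample were low, at 63.1 and 44.3 CPM. In control 1 the striated muscle genes Acta1, Ckm and Mylpf were at 860, 293 and 291 CPM in the same cells, against at most 40.3, 32.8 and 10.8 CPM in the other samples. Their part in the Des level of control 1 was not tested. In the cluster that all 6 samples shared, control 1 had Acta1 at 8.39 CPM and Des at 198 CPM. High-fat diet 2 had Acta1, Ckm and Mylpf at 384, 162 and 78.2 CPM in that cluster, and Des at 170 CPM. The part of the striated genes in that Des level was not tested either.

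In single cells thinned to 1000 UMIs, Acta2 was seen in 99.5% ± 0.41 of cells of the Sost type (SD, n = 6 samples), Tagln in 97.7% ± 1.14, Myl9 in 95.2% and Myh11 in 87.3%. Actg2 was seen in 28% ± 12 and Des in 17.5% ± 7.7. Of the 10 genes, 6.54 ± 0.22 were seen per cell of the Sost type, 6.38 ± 0.35 in the Sncg type and 3.70 ± 0.88 in pericyte-like cells. In immune cells Acta2 was seen in 58.1% ± 20.7 at the same depth and in 84.2% without thinning, so a single UMI of Acta2 in a cell does not separate the classes.

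The smaller smooth muscle type carried a different balance of the same genes. Mylk and Des were higher and Cnn1 and Actg2 lower in the Sncg type than in the Sost type, as a description of cell classes and without a test. Mylk in the Sncg type was at 2651 and 2847 CPM in controls 2 and 3 and at 2532, 2448 and 2587 CPM in high-fat diet samples 1 to 3, a median of 1.22 higher on the log2 scale than in the Sost type of the same sample and higher in 5 of 5 samples. Des was at 850 and 674 CPM in controls 2 and 3 and 656, 649 and 312 CPM on high-fat diet. It was higher than in the Sost type in 5 of 5 by a median of 0.86, with high-fat diet 3 again lowest. Acta1 in the Sncg type was at 203 CPM in high-fat diet 2 and at 11.8 to 58.7 CPM in the other samples. The part of striated RNA in the Des level was not tested. Myh11 was higher in 5 of 5 samples by a median of 0.31. Cnn1 was lower in 4 of 5 samples, by a median log2 difference of -0.95, and Actg2 was lower in 4 of 5, by -1.66. The Acta2 mean of 11352 ± 1951 CPM (SD, n = 5) lay within 1 SD of the Sost type's 13282 ± 4401 CPM (n = 6), and the same held for Lmod1. Tagln in the Sncg type was at 6322 and 9418 CPM in controls 2 and 3 and at 6109, 6615 and 6917 CPM in high-fat diet samples 1 to 3.

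The Sncg type consisted of 2 sub-clusters, and they differed in the actin-binding genes. The one led by Nrip2 had Cnn1 at 401 ± 101 CPM, Smtn at 283 ± 82.5 CPM and Actg2 at 65.1 ± 60.9 CPM (SD, n = 5 samples). The other had Cnn1 at 1164 ± 229 CPM, Smtn at 681 ± 97.9 CPM and Actg2 at 222 ± 84.7 CPM (n = 3). The means of Des, Acta2, Myl9 and Lmod1 differed by less than 1 SD between the 2 sub-clusters. The second sub-cluster was 52.9% and 68.9% of the Sncg type in controls 2 and 3, and 16.4%, 1.52% and 38.3% in high-fat diet samples 1 to 3, so the mix moved with the diet groups.

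**Figure D2:**
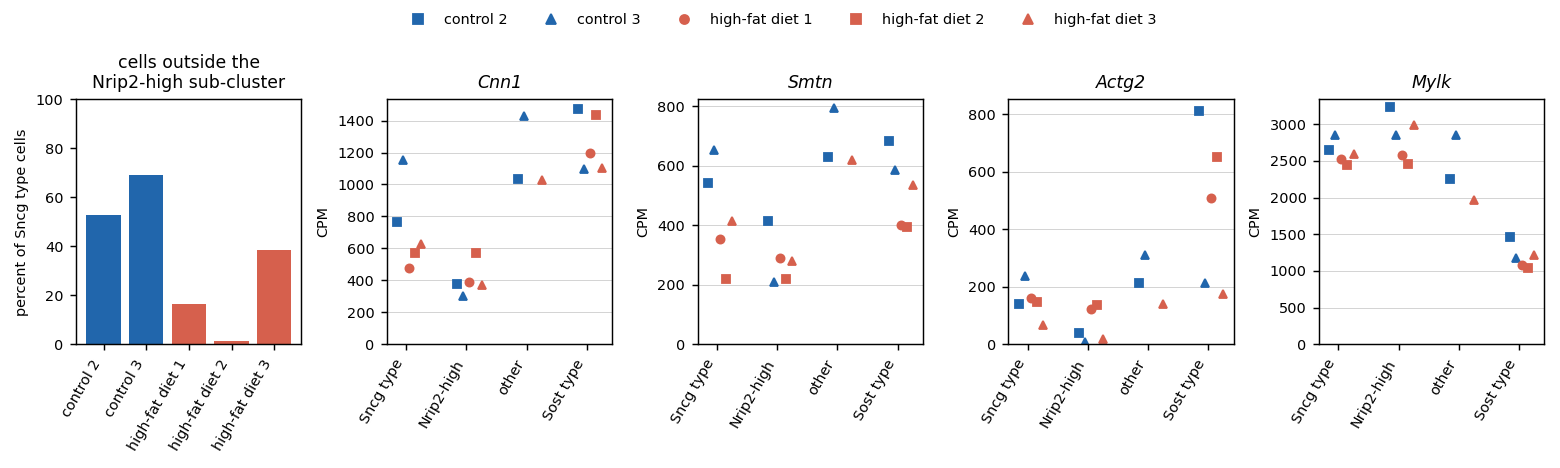
Left, the share of Sncg type cells (percent) outside the Nrip2-led sub-cluster, for the 5 samples with at least 20 cells. Right, the levels of Cnn1, Smtn, Actg2 and Mylk (CPM) in the Sncg type, its Nrip2-led and its other sub-cluster and the Sost type, with 1 point per sample (blue, control; red, high-fat diet). The share was above 50% in both controls and below 40% in all 3 high-fat diet samples.

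The unnamed mural cells were the richest in Actg2. Its level there was 1889, 1332 and 1222 CPM in controls 1 to 3 and 661, 1434 and 2521 CPM in high-fat diet samples 1 to 3, a median of 1.64 above the Sost type on the log2 scale and higher in 6 of 6 samples. Cnn1 was at 1441 ± 738 CPM, Mylk at 2042 ± 902 CPM, Smtn at 160 ± 31.4 CPM and Des at 173 ± 48.2 CPM (SD, n = 6). Smtn was lower than in the Sost type in 6 of 6 samples, by a median log2 difference of -1.65. The Actg2 level was not that of 1 sample, although 128 cells of 1 sub-cluster came almost wholly from high-fat diet 3.

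Pericyte-like cells had lower mean levels than the Sost type for every contractile gene except Des. Their Acta2 mean was 4965 ± 2302 CPM, Myh11 572 ± 145 CPM, Cnn1 203 ± 115 CPM and Smtn 72.5 ± 30.1 CPM (SD, n = 5). Des, at 385 ± 106 CPM, was higher than in the Sost type of the same sample in 5 of 5 samples, by a median of 0.39 on the log2 scale. Myl9 was at 2992 ± 632 CPM. In the sub-cluster with high Kcnj8, a pericyte channel gene, Acta2 had a mean of 1725 ± 1512 CPM (n = 4), while Des was at 337 ± 144 CPM and Myl9 at 1634 ± 485 CPM. The striated gene Acta1 was there at 31.5 and 0 CPM in controls 2 and 3. In high-fat diet 2 and 3 it was at 317 and 28.5 CPM. Des in these samples was at 347, 428, 444 and 131 CPM, and the part of striated RNA in it was not tested. Against immune cells of the same samples that sub-cluster was higher in Des by a median of 3.93, in Mylk by 2.80 and in Myl9 by 2.52 on the log2 scale, in 4 of 4 samples each, and lower in Cnn1 by -0.36. Actg2 had 0 counts in that sub-cluster in controls 2 and 3, which allows up to 47.3 and 30.5 CPM (3 counts, counting error only).

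Contractile transcripts were also counted in cells that should not express them. In immune cells Acta2 was at 1939, 390 and 432 CPM in controls 1 to 3 and 1338, 1984 and 1010 CPM in high-fat diet samples 1 to 3. Control 1 and high-fat diet 2 were highest and controls 2 and 3 lowest for every gene of the 10 except Des, for instance 274, 34.6 and 59.1 CPM and 128, 233 and 84.0 CPM for Cnn1. Free RNA taken up with every cell was assumed to keep its genes in 1 ratio within a sample. The count of each gene per Acta2 count was therefore divided by the same value in immune cells of the same sample. The 2 wells of a sample were pooled, so a class with another mix of wells than immune cells may have an unlike reference. Whether the wells differed in free RNA was not tested. The immune classes share these cells with their own reference, and the median ratio of the 9 genes in B, T or NK, macrophage-like and dendritic-like cells lay between 0.806 and 1.17.

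**Figure D3:**
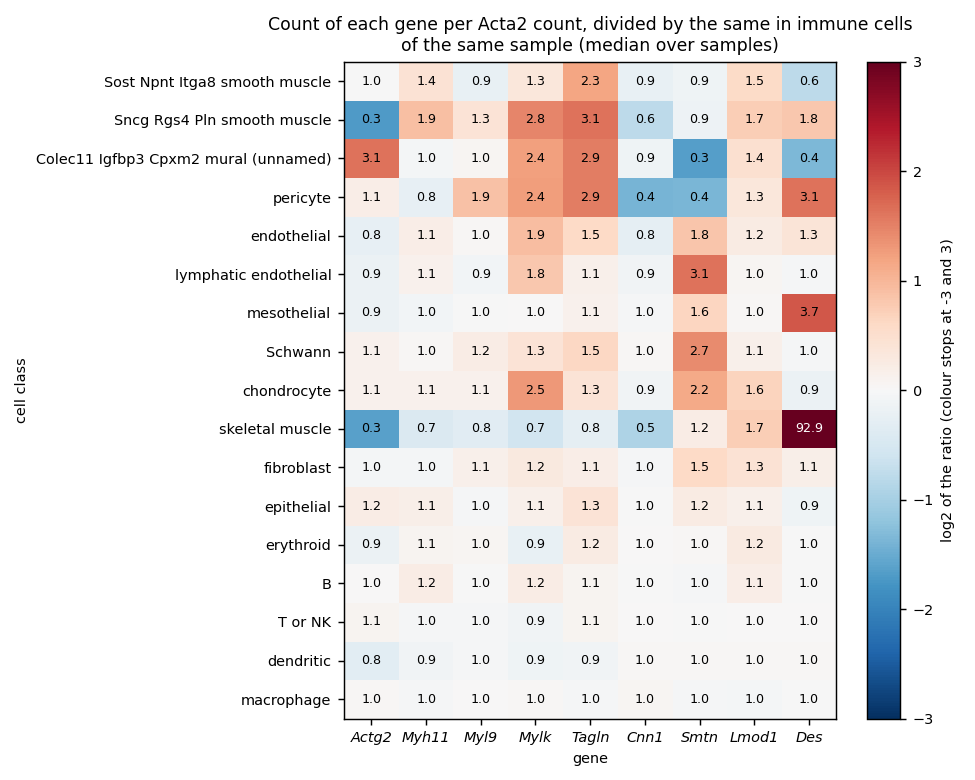
Count of each of 9 genes per Acta2 count, divided by the same in immune cells of the same sample, as the median over samples in 17 cell classes (colour on a log2 scale). Values near 1 mark a gene whose ratio to Acta2 is that of immune cells, and Des in skeletal muscle, at 92.9, is far from it.

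Several classes held members of the list above that mixture. Des per Acta2 count was 92.9 times the immune value in skeletal muscle-like cells (above 1 in 3 of 3 samples), where Des reached 7286 ± 1623 CPM (SD, n = 3). It was 3.66 times the immune value in mesothelial-like cells (5 of 6 samples) and 3.11 times in pericyte-like cells (5 of 5). Cardiomyocyte-like cells of control 2 and high-fat diet 1 held Des at 586 and 722 CPM.

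Smtn exceeded the immune mixture in several non-muscle classes. Its ratio was 3.10 in lymphatic endothelial-like cells, 2.67 in Schwann-like cells, 1.77 in endothelial-like cells and 1.52 in fibroblast-like cells, above 1 in 6 of 6 samples each. Mylk, whose gene also encodes a non-muscle kinase, was at 1.92 in endothelial-like cells and 1.75 in lymphatic endothelial-like cells, in 6 of 6 samples each. Tagln, Des and Lmod1 were at 1.51, 1.30 and 1.20 in endothelial-like cells, also above 1 in 6 of 6 samples each. In chondrocyte-like cells Mylk was at 2.46 and Smtn at 2.21, above 1 in 4 of 4 samples each. The Smtn level was 134 ± 16.6 CPM in lymphatic endothelial-like cells and 47.1 ± 27.9 CPM in immune cells (SD, n = 6).

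Across 98 sums of a cell class in a sample, the genes outside the list whose level most resembled the mean of the 10 members were mostly partners in the apparatus. Pearson's r of log2(CPM + 1) was 0.95 for Ppp1r14a, the inhibitor of myosin phosphatase, 0.94 for the actin-bundling Synpo2, 0.92 for Mir143hg, the host transcript of a smooth muscle microRNA pair, and 0.91 for filamin (Flna). Npy1r, Mustn1, Rasl12, Csrp1, Slmap and Myl6 followed at 0.90, 0.90, 0.89, 0.89, 0.89 and 0.89. The sums share libraries, depth and free RNA, so r is a description. Against the mean of the other 9 members Acta2 had r of 0.97, Smtn 0.73 and Des 0.52. Tpm1, Hspb6 and Ldb3, genes of striated and smooth muscle filaments, were nearest to Des, with 0.89, 0.86 and 0.81. Nearest to Actg2 were Cnn1, Lmod1 and Acta2, themselves members, with 0.90, 0.89 and 0.89.

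None of the contractile genes passed the test of diet in smooth muscle-like cells. With both types pooled, 0 of 10 were called (edgeR quasi-likelihood test, Benjamini-Hochberg adjustment over 13357 genes). In that comparison 0% of all genes were called. At an unadjusted p under 0.05 stood 1207 genes (9.04%) and 0 of the 10, and DESeq2 called 95 genes and 0 of the 10. The log2 fold changes, high-fat diet over control, ran from -0.40 for Smtn (SE 0.25, adjusted p = 0.65) to 0.17 for Lmod1 (SE 0.16, adjusted p = 0.76), and Acta2 was at 0.09 (SE 0.35). Their median was -0.13, against -0.02 over all genes. In the cluster that all 6 samples shared, which Sost, Npnt and Itga8 led, 0 of 10 were called, too. The Sost type alone gave 0 of 10 called as well, with 0% of 13276 genes called and 9.14% of genes, none of the 10, at an unadjusted p under 0.05. In simulated data of this design 33% of genes changed 2-fold and 100% of those changed 4-fold were recovered, so a 2-fold change could be missed.

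**Figure D4:**
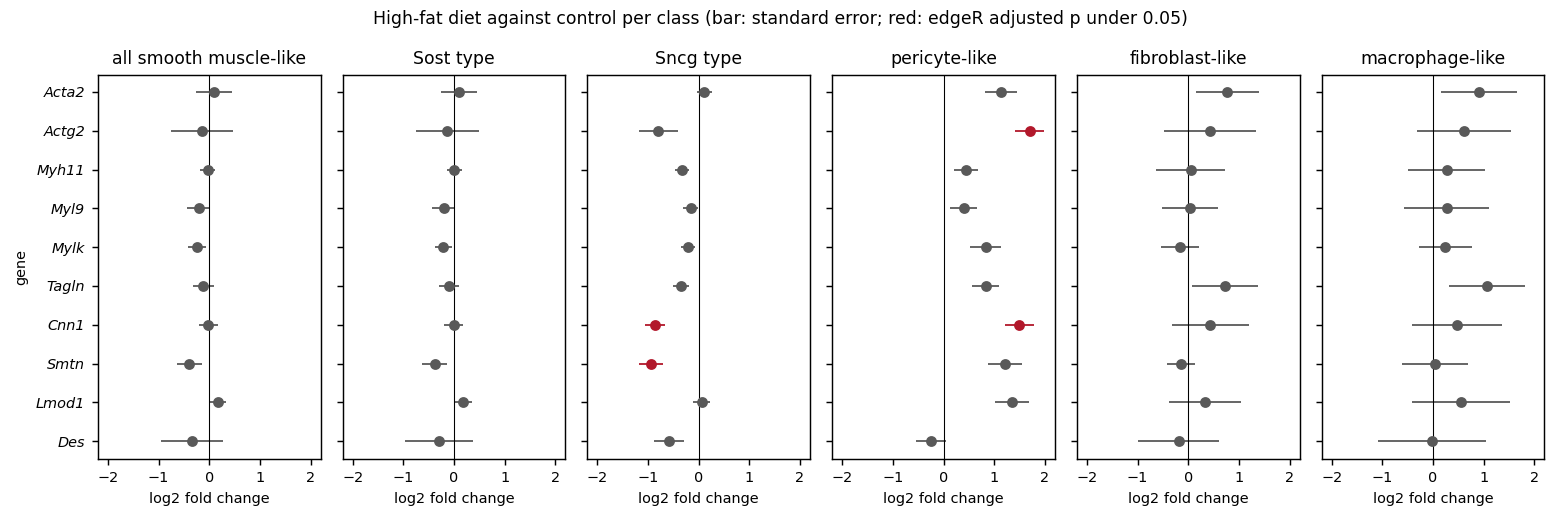
Log2 fold change (high-fat diet over control) of the 10 genes with its SE (bar) in smooth muscle-like cells, the 2 smooth muscle types, pericyte-like, fibroblast-like and macrophage-like cells. Red points passed an edgeR adjusted p of 0.05: Cnn1 and Smtn in the Sncg type, Actg2 and Cnn1 in pericyte-like cells.

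The balance of the types did not differ detectably between the diets either. The Sost type was 99.5%, 95.3% and 86.8% of smooth muscle-like cells in controls 1 to 3 and 97.5%, 97.0% and 93.4% in high-fat diet samples 1 to 3. The means were 93.9% ± 6.43 and 96.0% ± 2.23 (SD, n = 3 each), a difference of 2.11 points (two-sided exact permutation p = 0.8, the smallest possible being 0.1). Without control 3 the difference was -1.41 points.

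Cnn1 and Smtn were lower on high-fat diet in the Sncg type. Cnn1 was at 764 and 1153 CPM in controls 2 and 3 and at 480, 571 and 627 CPM in high-fat diet samples 1 to 3, without overlap. The edgeR estimate was -0.86 on the log2 scale (SE 0.19, adjusted p = 0.023). Smtn was at 542 and 651 CPM in controls 2 and 3 and at 354, 218 and 413 CPM on high-fat diet, again without overlap, and edgeR put the change at -0.94 on the log2 scale (SE 0.23, adjusted p = 0.046). These 2 of 10 were called, against 2.45% of 5463 genes, and 4 of 10 had an unadjusted p under 0.05, against 15.8%. On the scale of the fit the high-fat diet samples lay wholly below the controls for 5 of 10 genes, against 16.3% of genes tested, the other 3 being Myh11, Mylk and Des.

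The Sncg-type values moved with other measures. The sum of markers of the Sost type was 2980 and 1839 CPM in controls 2 and 3 and 1097, 977 and 1471 CPM on high-fat diet, without overlap, and the share of the Cnn1-rich sub-cluster was lower on high-fat diet, as given above. Endothelial markers (10 to 12 of 12 seen) summed to 1079 and 901 CPM in controls 2 and 3 and to 1580, 3921 and 2848 CPM on high-fat diet. Macrophage markers (9 to 10 of 10 seen) summed to 348 and 495 CPM in controls 2 and 3 and to 1089, 736 and 841 CPM on high-fat diet. B cell markers were lower on high-fat diet, at 27.5, 2.54 and 10.8 CPM against 75.7 and 134 CPM, with Pax5 at 0 in all 3 high-fat diet samples. Cnn1 in immune cells, a measure of free RNA, was 34.6 and 59.1 CPM in controls 2 and 3 and 84.0 to 233 CPM on high-fat diet. The part of the marker sums and of free RNA in the result was not tested.

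A fit within the Nrip2-led sub-cluster, added after the values were seen, put Cnn1 at 0.35 on the log2 scale (edgeR, adjusted p = 0.55) and Smtn at -0.27 (adjusted p = 0.72), with 0 of 10 called against 0.871% of 4248 genes. Over the whole Sncg type, leaving out 1 sample moved the log2 value of Cnn1 between -1.17 and -0.48 and that of Smtn between -1.17 and -0.71. Neither call held without control 3 or without either of the first 2 high-fat diet samples, with a mitochondrial limit of 10%, or with the 11 cells of control 1 included. Without control 3 Cnn1 was at -0.48 (adjusted p = 0.30) and Smtn at -0.75 (0.13), and with the mitochondrial limit they were at -1.07 (0.062) and -1.05 (0.11). In control 1 Cnn1 was at 383 CPM and Smtn at 82.1 CPM, and with it included their log2 values were -0.61 and -0.66 (edgeR adjusted p = 0.52 for Cnn1 and 0.73 for Smtn).

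The diet change of Cnn1 also differed between the smooth muscle types, by a log2 value of -0.72 (Sncg minus Sost type, SE 0.18, edgeR adjusted p = 0.020, with each sample as a block). Of 12735 genes 0.597% passed this test, and of the 10 only Cnn1. The Cnn1 difference was -0.11 without control 3 and -1.24 without control 2. Leaving out 1 control thus moved it by more than its SE. For Acta2 the same difference was 0.17 in the main fit, -0.45 without control 2 and 0.83 without control 3. The Cnn1 difference was not called by edgeR without high-fat diet 1 (-0.66, adjusted p = 0.99) or 2 (-0.66, adjusted p = 0.33), or with control 1 included (-0.42, adjusted p = 0.97). With the Sost type taken only from the cluster that all 6 samples shared, the Cnn1 difference was -0.70 (SE 0.26, adjusted p = 0.81) and 0 of 10 passed. That fit was added after the values were seen. With the Nrip2-led sub-cluster alone the difference was 0.50 (adjusted p = 0.98). The fit with that sub-cluster, also added after the values were seen, called 0.126% of 12714 genes and of the 10 only Actg2, at 2.21 (adjusted p = 5.3e-04).

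Actg2 and Cnn1 were higher on high-fat diet in pericyte-like cells. Actg2 was at 132 and 61.4 CPM in controls 2 and 3 and at 294, 395 and 304 CPM in high-fat diet samples 1 to 3. The edgeR estimate of the change was 1.70 on the log2 scale (SE 0.29, adjusted p = 0.0058). Cnn1 was at 111 and 76.7 CPM in controls 2 and 3 and 221, 366 and 238 CPM on high-fat diet, which edgeR put at 1.50 on the log2 scale (SE 0.29, adjusted p = 0.012). The called genes were 2 of 10, against 1.56% of 4857 genes. On the scale of the fit the high-fat diet samples lay wholly above the controls for 9 of 10 genes, against 17.4% of genes tested (8 of 10 on plain CPM, where Myh11 overlapped), and 7 of 10 had an unadjusted p under 0.05, against 14.8%.

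The other pericyte values did not pass. Acta2 was at 3567 and 2113 CPM in controls 2 and 3 and at 5572, 8218 and 5354 CPM on high-fat diet (log2 fold change 1.13, SE 0.32, edgeR adjusted p = 0.072). Lmod1 was at 222 and 107 CPM and at 498, 524 and 304 CPM (1.36, adjusted p = 0.062), and Smtn at 38.4 and 40.9 CPM and at 97.0, 96.7 and 89.6 CPM (1.21, adjusted p = 0.074). Tagln had a fold change of 0.83, Mylk of 0.84, Myh11 of 0.44 and Myl9 of 0.40 on the log2 scale. Des alone had a negative value, -0.24 (adjusted p = 0.79), with high-fat diet 3 lowest at 212 CPM and the others at 367 to 472 CPM.

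**Figure D5:**
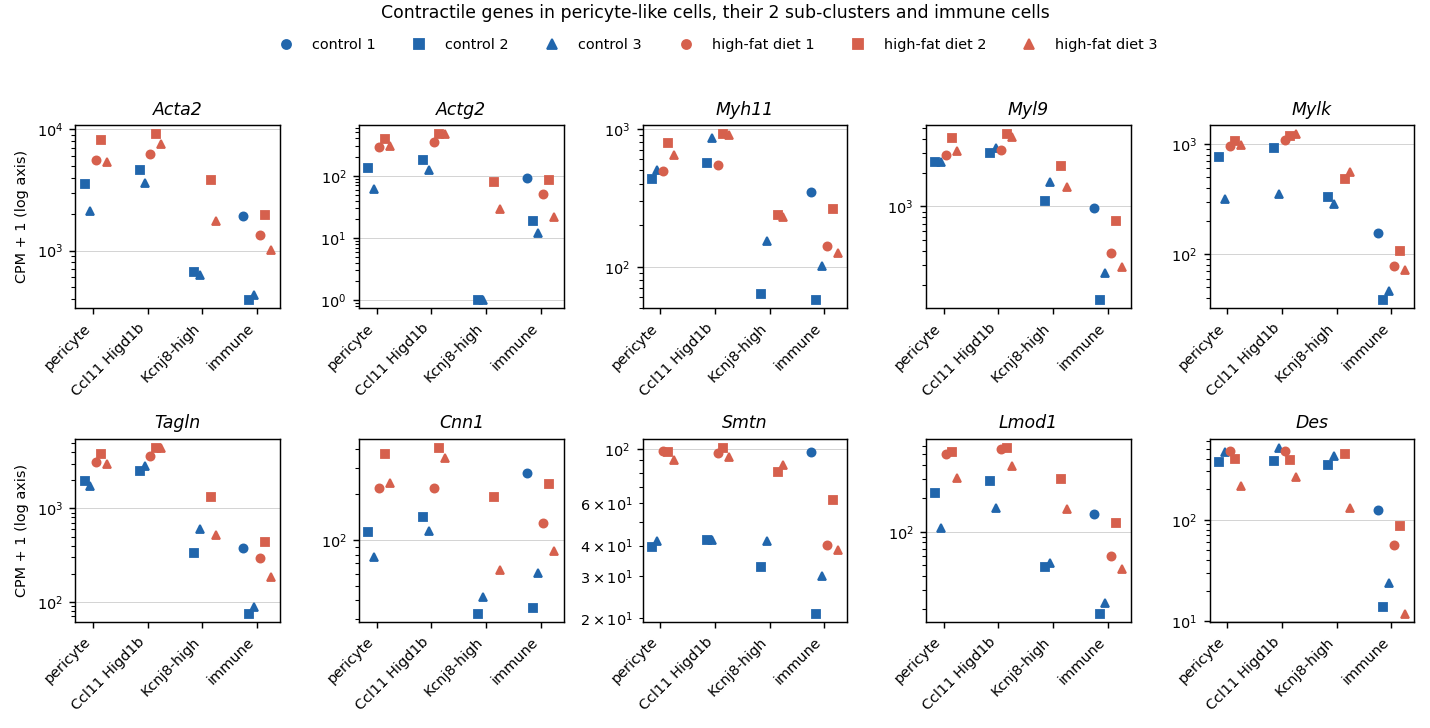
Levels of the 10 genes (CPM + 1, log axis) in pericyte-like cells, in their 2 sub-clusters and in immune cells, with 1 point per sample (blue, control; red, high-fat diet). Red points lie above blue ones for 8 genes in the pericyte column, all but Myh11 and Des, while in immune cells control 1 is as high as the high-fat diet samples.

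Other measures moved with the pericyte result as well. Markers of smooth muscle that pericytes do not share summed to 2460 and 2461 CPM in controls 2 and 3 and to 2970, 3682 and 3468 CPM on high-fat diet, with 16 to 18 of 18 seen and Myocd at 0 in both controls. Endothelial markers summed to 2704 and 10707 CPM in controls and to 3506 to 4344 CPM on high-fat diet. Macrophage markers (9 to 10 of 10 seen) summed to 406 and 624 CPM in controls 2 and 3 and to 910, 791 and 1045 CPM on high-fat diet. B cell markers summed to 150 and 179 CPM in controls 2 and 3 and to 50.2, 8.79 and 10.9 CPM on high-fat diet, with Pax5 at 0 in all 3 high-fat diet samples. Free RNA moved the same way in these 5 samples: Actg2 in immune cells was 17.4 and 11.1 CPM in controls 2 and 3 and 50.6, 83.3 and 20.7 CPM on high-fat diet, while control 1, left out for its 9 pericytes, was highest at 90.4 CPM. With the immune level of the same sample subtracted, the high-fat diet samples lay above the controls for 8 of 10 genes. The wells of a sample were pooled here, so a different mix of wells in pericyte-like and immune cells was not accounted for. The share of all genes was not computed after this subtraction, and without it 17.4% of genes tested lay so on the scale of the fit. After subtraction Actg2 was at 50.3 to 115 CPM in controls 2 and 3 against 244 to 312 CPM on high-fat diet, and Cnn1 at 17.6 to 76.5 CPM against 92.4 to 154 CPM. Beyond these values, the part of these markers and of free RNA in the result was not tested.

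Genes were called as higher on high-fat diet in each pericyte sub-cluster. In the one led by Ccl11 and Higd1b, which held more of the contractile counts, Actg2, Cnn1 and Lmod1 were called (3 of 10, against 2.7% of 4188 genes). In the Kcnj8-high one, with 4 samples, Acta2 differed by 2.09 on the log2 scale (edgeR, adjusted p = 0.0067) and was the only one called of 7 tested, against 1.87% of 1441 genes. Acta2 in immune cells of these samples rose as well, from 390 and 432 CPM in controls 2 and 3 to 1984 and 1010 CPM in high-fat diet 2 and 3. The part of free RNA in this call was not tested. Without high-fat diet 2 none of the 10 was called in pericyte-like cells by edgeR (Actg2 at 1.56 on the log2 scale, adjusted p = 0.091, and Cnn1 at 1.25, adjusted p = 0.10). Leaving out 1 sample moved the log2 value of Actg2 between 1.26 and 2.46, of Cnn1 between 1.24 and 1.87, of Lmod1 between 0.92 and 2.07 and of Acta2 between 0.78 and 1.63. Actg2 and Cnn1 were called without control 3, at the low end of these ranges. DESeq2 called Actg2 and Acta2, with Cnn1 at an adjusted p of 0.053. The 9 pericytes of control 1, not fitted, had Actg2 at 39.1 CPM and Cnn1 at 235 CPM. With them included 3 of 10 were called, and the share of all genes called in that fit was not counted.

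No contractile gene was called in fibroblast-like, macrophage-like or endothelial-like cells. Fibroblast-like and macrophage-like cells had 0 of 10 called by edgeR, with 0% of 13819 and of 11098 genes called. At an unadjusted p under 0.05 stood 10.5% and 8.4% of genes and none of the 10. In endothelial-like cells 0.142% of 10535 genes were called and 0 of 10, and 12.5% of genes but none of the 10 had an unadjusted p under 0.05. DESeq2 called none of the 10 in these 3 classes. The log2 values ran from -0.19 for Des to 0.77 for Acta2 in fibroblast-like cells and from -0.02 for Des to 1.07 for Tagln in macrophage-like cells. In endothelial-like cells they ran from -0.15 for Smtn to 0.93 for Actg2. Positive values were had by 9 of 10 in endothelial-like (49.8% of all genes) and in macrophage-like cells (48.6%). The count was 7 of 10 in fibroblast-like cells (49.6%) and 9 of 10 in pericyte-like cells (49.3%). The fits of these 3 classes included control 1, which the pericyte fit left out.

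The rest of the apparatus was looked at through 30 further genes of the contractile machinery, 26 of calcium handling and channels, 19 regulators of the program, 21 non-muscle and striated relatives of the 10 genes and 19 genes of smooth muscle that leaves the contractile state. In smooth muscle-like cells none of these was called by edgeR (0 of 30, 24, 19, 19 and 18 measured), and 2, 4, 2, 2 and 1 had an unadjusted p under 0.05. The smallest adjusted p among the further machinery belonged to Nexn, an actin-binding protein (log2 value 0.44, adjusted p = 0.50). For calcium handling they were Rock2 and Rock1, kinases that keep myosin phosphatase off (0.92 and 0.71), and the calcium release channel Ryr2 (0.62). Myocd, the myocardin gene, had a log2 value of 0.58 (adjusted p = 0.46) and its relative Mkl1 one of -0.61 (0.50). The non-muscle light chain gene Myl12a was at 0.46 (0.48), and the collagen gene Col1a1, of the modulated list, at -0.51 (0.55).

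In the Sncg type 4 of 29 measured genes of the further machinery were called, as named here after their values were seen, against 2.45% of all genes tested in that type. Ppp1r14a, Pdlim7 and Vcl (vinculin) were lower on high-fat diet, with log2 values of -0.71, -0.84 and -0.84, and Filip1l was higher, at 1.11. Mustn1, of the regulator list, was lower at -0.81, and Klf4, a factor linked to loss of the contractile state, was higher at 1.29 (edgeR adjusted p = 0.045), with mean levels of 22.8 and 53.4 in the fit's CPM. Of the modulated list Col1a1 was lower at -1.67 and Ly6a higher at 1.26, so that list had 1 gene in each direction of 12 measured. None of 21 calcium genes and none of 13 relatives was called, with 7 and 4 at an unadjusted p under 0.05, against 15.8% of all genes.

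Pericyte-like cells had 4 of 27 measured genes of the further machinery called, each higher on high-fat diet, against 1.56% of all genes tested in that class. They were Filip1l (1.88), the actin-organising palladin Palld (1.47), Nexn (1.31) and the adhesion protein talin Tln1 (0.93, edgeR adjusted p = 0.0497). Of the 27, 24 had a positive log2 value, against 49.3% of all genes tested, and their median was 0.63, against -0.01 over all genes tested. The lean was not particular to pericyte-like cells. Positive values were also had by 25 of 27 genes in macrophage-like cells (median 0.34) and 26 of 30 in endothelial-like cells (0.20). In fibroblast-like cells 18 of 30 were positive (0.07), and in smooth muscle-like cells 13 of 30 (-0.05). Of 16 calcium genes the angiotensin receptor Agtr1a was lower (-1.46), and of 13 modulated genes Tpm4 was higher (1.22). None of 12 regulators and none of 12 relatives was called, with 2 and 5 at an unadjusted p under 0.05, against 14.8% of all genes. Names in this paragraph were also chosen after their values were seen.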

How the data were processed

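Aortic cells were profiled with droplet-based 3′ libraries. The authors deposited counts of UMIs per gene and cell for each sample, made with Cell Ranger 3.0 on mm10, per the submitters' processing notes. The annotation and the rule for calling cells are not given in the sources used here. Cells with at least 300 genes and under 20% mitochondrial counts were kept, and 1379 doublets (2.32%; scanpy 1.11.5, score limit 0.25) were removed. Cells were clustered (Leiden, resolution 1, 2000 variable genes, 30 components) without the contractile genes and named from markers of other function. Counts were summed per sample and class and tested with edgeR 4.0.16 (TMM, quasi-likelihood, filter on low counts) under R 4.3.3, at an adjusted p of 0.05 over all genes. Classes were compared without a test.

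The genes, the marker lists and the further gene lists were chosen with earlier results of these data known. By the rule for named genes all 10 can be named in every class, and values are given where a result turns on them, with ranges for the rest. Of each further list up to 6 genes with the smallest adjusted p in smooth muscle-like cells are named, and the genes most like the 10 in pattern. Fits of the Sncg type and of pericytes used 5 samples, since control 1 had under 20 cells of each. Recovery was tested on simulated data with 1 common spread for all genes. In the Sncg type 40% of genes changed 2-fold and 84% of those changed 4-fold were called, with 8 false calls. DESeq2 1.42.0, other scalings, filters, wells, gates and left-out samples were tried as alternatives. Intervals and floors cover counting error only.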

Additional observations from a re-analysis of the deposited data

Results flagged for a closer look

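The difference of the diet change of Cnn1 between the smooth muscle types, -0.72 on the log2 scale (Sncg minus Sost type, edgeR interaction test, adjusted p = 0.020, 5 samples), is listed because the test of the difference itself passed. In the Sost type Cnn1 had a log2 fold change of -0.01 (SE 0.19) in a fit of all 6 samples. In the Sncg type it was -0.86 (SE 0.19) in a fit of 5 samples, without control 1. These values come from unlike sets of samples, so they do not subtract to the difference tested. Leaving out 1 sample moved the difference between -1.24 and -0.11, with the Nrip2-led sub-cluster alone it was 0.50, and with the Sost type taken only from the cluster that all 6 samples shared it was -0.70 (adjusted p = 0.81). The share of the other sub-cluster was 52.9% and 68.9% in controls 2 and 3 and 16.4%, 1.52% and 38.3% on high-fat diet, and its part in the difference was not tested.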

How the results depend on the processing

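Of the counts and shares recomputed under an alternative, 120 kept their value within the limits set, 25 moved and 1 changed sign. In smooth muscle-like cells 0 of 10 contractile genes were called under each alternative run, while the number of all genes called, 0 in the main analysis, was 95 with DESeq2, 8 with no filter on low counts, 9 with well 2 only, 1 with a marker gate, 1 in the cluster shared by all 6 samples and 0 to 4 when 1 sample was left out. In the Sncg type the 2 called members became 0 with a mitochondrial limit of 10%, 4 with no filter, 0 with control 1 included, 0 in the Nrip2-led sub-cluster alone and 0 to 5 when 1 sample was left out. In pericyte-like cells the 2 called members became 5 with no filter, 1 in the Kcnj8-high sub-cluster and 0 to 5 when 1 sample was left out. The number of members whose diet change differed between the smooth muscle types, 1 in the main analysis, became 0 with control 1 included, 0 with the Sost type from the cluster shared by all 6 samples only and 0 to 4 when 1 sample was left out. Signs changed for Cnn1 in the Nrip2-led sub-cluster alone, with a log2 fold change of 0.346 and a difference from the Sost type of 0.4987, and for the share of the Sost type without control 3, which differed by -1.406 points. Leaving out 1 sample moved that share difference between -1.406 and 4.898 points. Where no reason is given, the cause was not tested. The control 1, sub-cluster and shared-cluster alternatives were chosen after seeing the data. For the Sncg type, pericyte-like cells and the difference between types, the share of all genes called was counted for few alternatives. These were sub-cluster and replicate-block fits. The other counts of members called there stand without that share, so they do not show whether all genes gained or lost calls alike.

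Sample numbers are shared between the diets. Deviations of same-numbered samples from their group means correlated at -0.078, 0.076 and 0.401 in smooth muscle-like cells. Samples with different numbers ran from -0.497 to 0.459. With 3 samples per group, whose deviations sum to 0, these values cannot tell whether the numbers pair the samples. With the number as a replicate block, 6 members were called in pericyte-like cells (against 4.36% of all genes under that fit), 3 in the Sncg type (against 2.6%) and 0 in smooth muscle-like cells (against 0%).

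The Sncg type had 61 to 180 cells and the pericytes 58 to 129 cells per sample used. Of simulated 2-fold changes 33% were recovered in smooth muscle-like cells and 40% in the Sncg type.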

Other observations

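Genes of heat shock and early response to dissociation, a list of 21 kept apart from the contractile genes, were tested for diet in the same way. In smooth muscle-like cells 0 of 21 were called by edgeR, against 0% of all genes, while 10 had an unadjusted p under 0.05, against 9.04%. Their median log2 value was 0.64, against -0.02 over all genes. The rise was not particular to smooth muscle. The median was 0.59 in fibroblast-like, 0.63 in endothelial-like and 0.73 in macrophage-like cells, and 0.16 in pericyte-like cells. In endothelial-like cells 3 of 21 were called, against 0.142% of all genes. Hsph1, Hspa8 and Hsp90aa1, chaperone genes, were at 1.90, 1.49 and 1.34 in smooth muscle-like cells. In the Sncg type 4 of 19 measured were called, against 2.45% of all genes tested, all higher: Hsp90aa1 (1.25), Hspa8 (1.17), Dnaja1 (1.10) and Hsp90ab1 (0.70). In pericyte-like cells Hspb1 (2.04), Hsp90aa1 (1.09) and Hspa8 (1.00) were higher and Junb lower (-1.21), of 20 measured, against 1.56% of all genes tested. The labels do not say how long each aorta was kept before digestion, and the part of handling in these values was not tested. Of 13 mitochondrially encoded genes, 0 were called in smooth muscle-like cells, with 0 at an unadjusted p under 0.05, and mt-Nd4l was higher in the Sncg type (0.85) and in pericyte-like cells (1.15).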
